A study of Homo sapiens with 6 samples.

Results

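The regions described here are the strong GSE1 sites of DMSO-treated cells that had no counterpart after the LSD1 inhibitor MC2580. They were chosen by their scores and by their absence: DMSO peaks on chromosomes 1 to 22 and X with a score of at least 200 that no MC2580 peak overlapped by even 1 bp. The rule selected 922 of the 3844 DMSO peaks of that score, or 24.0% (Wilson 95% interval 22.7 to 25.4). The other 2922, called retained, overlapped an MC2580 peak. Absent means that no peak was called there, not that the signal was 0. Among all 21118 DMSO peaks on these chromosomes, 67% had no overlapping MC2580 peak. This share is given only as the background, since absence was part of the rule.

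The cells were NB4, a human acute promyelocytic leukaemia line that carries the PML-RARA fusion. They expressed V5-tagged GSE1 (transcript variant 2) from the lentiviral vector pLEX_307, so that the antibody reported the introduced protein and not endogenous GSE1. GSE1-expressing cells received MC2580 at 2 µM or the solvent DMSO for 24 h before chromatin immunoprecipitation with a V5 antibody and sequencing (ChIP-seq). Cells with the empty vector (EV), for which no treatment is stated, served as a control. Each of the 3 ChIPs had its own input, which gave 6 libraries and 1 library per group. No difference between the conditions could therefore be tested. Differences between the lists are differences between these libraries, whose depth was unknown.

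LSD1 (KDM1A) is a histone demethylase that removes mono- and dimethylation from lysine 4 of histone H3 and works as a corepressor together with CoREST and histone deacetylases. GSE1 is a coiled-coil protein found in LSD1-containing complexes. LSD1 itself has no sequence preference and is brought to its sites by transcription factors. In blood cells GFI1 and GFI1B do so through their N-terminal SNAG domain, which binds the active site of LSD1, whereas PU.1, RUNX and CEBP factors set the myeloid enhancer landscape.

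The sequences shown first are short stretches around a GFI1 consensus word, which most of the absent sites did not hold. The word searched was AATCACNG, in which N is any base, on both strands of the 200 bp around the peak midpoint. It was found in 68 of the 922 absent sites and in 94 of the 2922 retained ones. Of the 6 highest-scoring absent sites with the word whose central window touched no exon, 4 are shown. Each line is read 5′ to 3′ on the strand that carries the word, in hg38, with the word in capitals.
SGMS1, intron, chr10:50458750-50458789, minus strand: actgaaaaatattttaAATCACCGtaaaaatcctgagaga
PTPRC, intron of a non-coding gene, chr1:198881361-198881400, minus strand: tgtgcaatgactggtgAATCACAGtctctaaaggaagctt
GZMB, distal intergenic, chr14:24660307-24660346, minus strand: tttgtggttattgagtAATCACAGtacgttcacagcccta
TLK1, intron, chr2:171146853-171146892, minus strand: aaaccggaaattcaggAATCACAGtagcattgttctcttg
The names are those of the nearest protein-coding genes. Their transcription start sites lay 8242 bp (SGMS1), 128941 bp (PTPRC), 26034 bp (GZMB) and 8934 bp (TLK1) from the peak midpoints. These genes encode a sphingomyelin synthase (SGMS1), the leukocyte phosphatase CD45 (PTPRC), granzyme B (GZMB) and a nuclear kinase (TLK1). In a few sites the word is followed by CTCAC, as in the Alu repeats that are spread over the human genome. Of the 68 sites, 64 kept a GFI1 word when words followed by these letters were left out.

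For 3 more sites the central 200 bp are shown in hg38 on the plus strand. The site upstream of EGR2, at chr10:62853376-62853575, had the highest score of all absent sites and none of the 11 words searched. The CD86 site, at chr3:122074840-122075039, holds a PU.1 word (GAGGAAGT or its complement) in capitals, and the IKZF1 site, at chr7:50309546-50309745, holds an interferon-response word (ISRE, GAAANNGAA) and a RUNX word (TGTGGTTT), both in capitals.
EGR2: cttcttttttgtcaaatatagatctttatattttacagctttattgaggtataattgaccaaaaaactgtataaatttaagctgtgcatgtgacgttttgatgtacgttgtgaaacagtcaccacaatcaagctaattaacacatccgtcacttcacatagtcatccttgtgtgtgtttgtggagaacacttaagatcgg
CD86: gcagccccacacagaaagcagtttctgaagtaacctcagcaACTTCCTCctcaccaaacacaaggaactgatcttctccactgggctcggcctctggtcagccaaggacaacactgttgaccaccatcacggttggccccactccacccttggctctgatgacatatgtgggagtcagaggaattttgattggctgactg
IKZF1: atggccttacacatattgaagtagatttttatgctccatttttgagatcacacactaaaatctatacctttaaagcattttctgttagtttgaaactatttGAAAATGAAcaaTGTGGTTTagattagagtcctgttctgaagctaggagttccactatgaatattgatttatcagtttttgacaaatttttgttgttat
Of the 10 words other than the GFI1 word, the PU.1 word was present in 2.95% of the central windows of all 21118 DMSO peaks, the RUNX word in 4.66% and the ISRE in 6.46%, against 3.17% for the GFI1 word. A match is a description of letters and does not show that the factor was bound.

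Absence fell with the strength of the DMSO peak. The rule used both the score and the absence, so that this trend is a description and was not tested. The score is given by the peak caller as the p-value on a scale of minus 10 log10, on which the study's calling threshold is 50. Of the DMSO peaks scoring 200 to 300, 616 of 1600 (38.5%) were absent. The share was 22.8% from 300 to 500 (241 of 1057), 8.19% from 500 to 1000 (58 of 708) and 1.46% above 1000 (7 of 479). None of the 111 peaks listed at exactly 3100 was absent, while 76.6% of the peaks under 200 were. The absent sites had a median score of 261.81 (95% interval 255.78 to 267.31) and reached 1407.24, and the retained sites had a median of 391.70 (378.20 to 406.86). In the 2824 retained sites with an MC2580 score under 3100 the median ratio of the MC2580 to the DMSO score was 0.390 (0.379 to 0.406), so that most of them also scored lower in the MC2580 list. Both lists were called with their own sequencing depth and scores were not corrected for it.

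**Figure D1:**
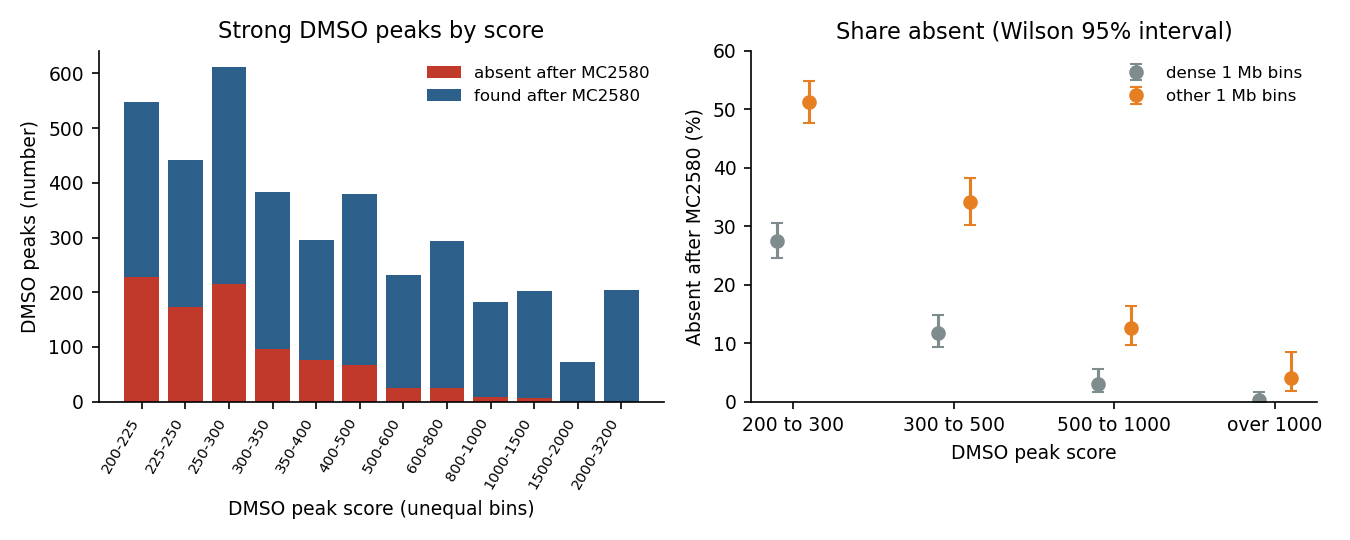
Left, number of DMSO peaks of score at least 200 in each score bin, split into those absent (red) and found (blue) after MC2580. Right, percentage absent by score class in 1 Mb bins with at least 20 DMSO peaks (grey) and in the other bins (orange), with Wilson 95% intervals; in every class the orange point lies above the grey one, for example 51.2% against 27.4% from 200 to 300.

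At the edge of the rule, the lowest-scoring absent sites were an exonic site of DOCK8 at 200.22, a site near SFSWAP at 200.30 and an intronic site of FPR3 at 200.30. Absent peaks just under the minimum lay at AHDC1 (199.74), near KCNJ18 (199.58) and in SLC24A3 (199.49). The nearest MC2580 peak was a median of 41213.5 bp away (32873 to 49681) and lay within 1 kb for 76 absent sites (8.24%). It was 2 bp away at NFX1, 22 bp at KANK1 and 28 bp at SMCO2. The slightest overlaps among retained sites were 3, 22 and 28 bp. At the other end, 430 absent sites (46.6%) had no MC2580 peak within 50 kb and 62 had none within 1000 kb.

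The absent sites were spread over the genome and were few where DMSO peaks were crowded. They lay on all 23 chromosomes considered, with 97 on chromosome 2 and 90 on chromosome 12. Of the strong peaks, between 5.56% (chromosome 19, 36 of 648) and 40.9% (chromosome 3, 45 of 110) were absent. Bins of 1 Mb that held at least 20 DMSO peaks, called dense, contained 308 absent sites of 2047 strong peaks (Wilson 95% interval 13.6 to 16.7%), and all other bins 614 of 1797 (32.0 to 36.4%). The absent sites were narrower than the retained ones, with median widths of 1291.5 bp and 1875.5 bp. Outside dense bins the medians were 1194 bp and 1250 bp. Of the narrowest quartile of strong peaks 38.2% were absent, and of the widest 4.16%. Under a rule of 1 bp, wide peaks and peaks in crowded bins are more easily overlapped by some MC2580 peak. The differences in width and between bins therefore follow in part from the rule and were not tested. Within 12.5 kb of each other, 27 pairs of absent sites were found and no larger group, and 868 stood alone.

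Of the 15 highest-scoring absent sites, 7 scored above 1000. The first, at 1407.24, lay 34309 bp from the transcription start site (TSS) of EGR2 (chr10:62852512-62854440, in an intron of a non-coding transcript), and its nearest MC2580 peak was 213443 bp away. EGR2 is a zinc-finger transcription factor of the early growth response family that acts in macrophage differentiation. Next came a site at 1099.53 near the TSS of a non-coding gene, 54881 bp from VCPKMT, and an intronic site of the kinase gene MAP3K20 at 1099.17. A promoter site of a non-coding gene near the myosin gene MYO18A scored 1066.26. The site nearest to SERTAD2, a transcriptional coregulator, scored 1044.52 but lay 101912 bp from its TSS. An intronic site of TOX2, an HMG-box gene, scored 1034.10, and the promoter-class site of WFS1, which encodes the endoplasmic reticulum protein wolframin, 1022.08. The WFS1 window holds a PU.1 word, and its nearest MC2580 peak lay 2461 bp away.

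The other 8 scored from 809.79 to 913.93. They lay in an exon of SLC1A4, an amino acid transporter gene (913.93), and of CRYBG1 (912.90), in introns of the class IIa deacetylase gene HDAC4 (905.28), of the anion channel subunit gene LRRC8C (894.79) and of SGMS1 (809.79), and between genes. The intergenic sites were nearest to DGLUCY (886.11), to TFAP2C (865.81, at 197380 bp) and to CD300E, a receptor of myeloid cells (841.37). The HDAC4 window holds a RUNX word, and the SGMS1 window a GFI1 word. For comparison, the retained sites that scored highest under 3100 lay on chromosome 21 beside the ribosomal RNA gene RNA5-8SN2 (3099.12 in DMSO, 2107.69 after MC2580), near OR7C2 (3081.20 and 3100) and near CWH43 (3076.19 and 2732.20).

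Over all strong sites, no annotation class passed the test as defined here. A site was classed as promoter within 3 kb of any annotated TSS, then as exon or untranslated region, then as intron, and otherwise as distal intergenic. Promoters held 402 absent sites (43.6%) and 41.8% of the retained ones, an odds ratio of 1.08 (95% interval 0.926 to 1.26). This did not pass Fisher's exact test, two-sided here and below, with Benjamini-Hochberg adjustment over the 4 classes (adjusted exact p = 0.339). Exons or untranslated regions held 6.29% against 8.49%, introns 28.9% against 25.5% and distal intergenic sequence 21.3% against 24.3%, each with an adjusted p of 0.0821. Other definitions gave calls: exons or untranslated regions passed with promoters within 1 kb of a TSS (odds ratio 0.694) and with absence within 1 kb (0.692), and introns with absence within 1 kb (1.27). Distal intergenic sequence passed within width quartiles (0.796). These tests compare peaks within the DMSO list, not the conditions, and neighbouring peaks are not independent.

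Outside dense bins the classes did differ. Promoters held 43.2% of 614 absent sites against 36.7% of 1183 retained ones (odds ratio 1.31, 1.07 to 1.61, adjusted exact p = 0.0160). Distal intergenic sequence held 19.7% against 27.7% (odds ratio 0.640, 0.501 to 0.815, adjusted exact p = 0.000741). Within the dense bins the odds ratio of the promoter class was 0.971 (0.755 to 1.25). When the class was taken from the peak midpoint, a choice made after seeing the data, the promoter odds ratio over all strong peaks was 1.33 (1.14 to 1.56, adjusted exact p = 0.00104). Of the planned definitions, protein-coding TSSs only gave 1.02 (0.860 to 1.20) and promoters within 1 kb of a TSS 1.05 (0.889 to 1.24). Neither passed. Of the 402 absent promoter sites, 267 were promoters of protein-coding genes and 175 covered a TSS. Of the 1220 retained promoter sites, 836 were promoters of protein-coding genes and 614 covered a TSS. A TSS was thus covered by 19.0% of all absent and 21.0% of all retained sites. More than 50 kb from every protein-coding TSS lay 18.5% of the absent and 25.6% of the retained sites.

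**Figure D2:**
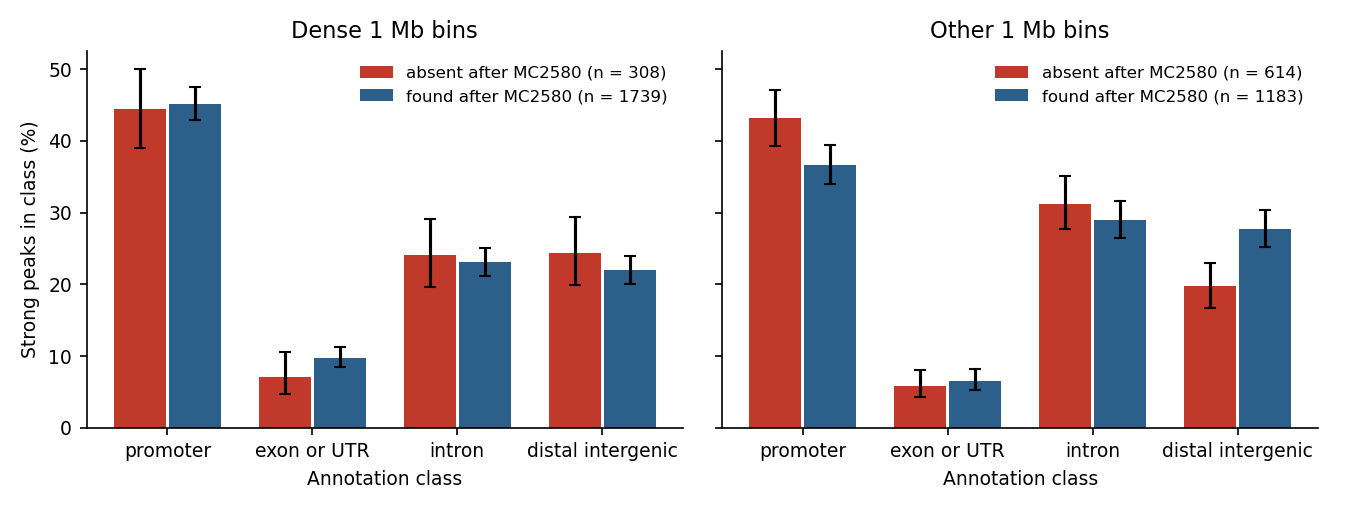
Percentage of strong DMSO peaks in each annotation class, absent (red) or found (blue) after MC2580, in 1 Mb bins with at least 20 DMSO peaks (left) and in the others (right). Bars carry Wilson 95% intervals; outside dense bins promoters held 43.2% of absent and 36.7% of retained sites.

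Among the 11 words tested, the GFI1 word gave the lowest adjusted p. GFI1 is the zinc-finger repressor that tethers LSD1 to DNA in myeloid cells. Its word was present in 68 absent sites (7.38%) and in 94 retained sites (3.22%), an odds ratio of 2.39 (1.71 to 3.34, Fisher's exact test, adjusted exact p = 2.75e-06 over 11 words). Read the other way, 68 of the 162 strong peaks with the word were absent (42.0%, 34.6 to 49.7), against 23.2% of those without it. The share absent was similar with the SP/KLF word (19 of 46, 41.3%, 28.3 to 55.7). It was 34.1% with the PU.1 word and lowest, 15.2%, with the GATA word. Outside dense bins the GFI1 word was in 8.31% of absent and 4.23% of retained sites (odds ratio 2.05, 1.34 to 3.14, adjusted exact p = 0.00568). Stratification by width, which differed between the groups, gave 1.87 (1.33 to 2.63), and stratification by score 2.93 (2.03 to 4.22). Leaving out the words followed by CTCAC gave 2.29 (1.63 to 3.22).

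In the absent sites the word was concentrated at the peak centre. Windows of the same length 2 kb to either side held it in 2.06% (odds ratio 3.78, 2.48 to 5.83, adjusted exact p = 2.22e-10), and in the retained sites the centre held 3.22% and the flanks 2.52% (odds ratio 1.29, 0.980 to 1.69, adjusted exact p = 0.0965). The retained sites did pass in other settings, with odds ratios of 1.61 outside dense bins (1.08 to 2.39), 1.65 at a score minimum of 300 (1.19 to 2.28) and 1.27 in 400 bp windows (1.04 to 1.54). In the same settings the absent sites gave 3.88, 4.44 and 3.00. In steps of 200 bp, the neighbouring windows of the absent sites held the word in 3.80% and 3.47%, and those farther out in 1.84% to 3.36%. Longer forms of the word, chosen after seeing the data, gave odds ratios of 2.53 (AATCACNGC, 1.53 to 4.14) and 3.00 (AAATCACNG, 1.68 to 5.34). At the free position N, the 73 words in absent sites had A in 44, T in 20, C in 5 and G in 4. The 97 words in retained sites had A in 49, T in 33, C in 7 and G in 8.

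**Figure D3:**
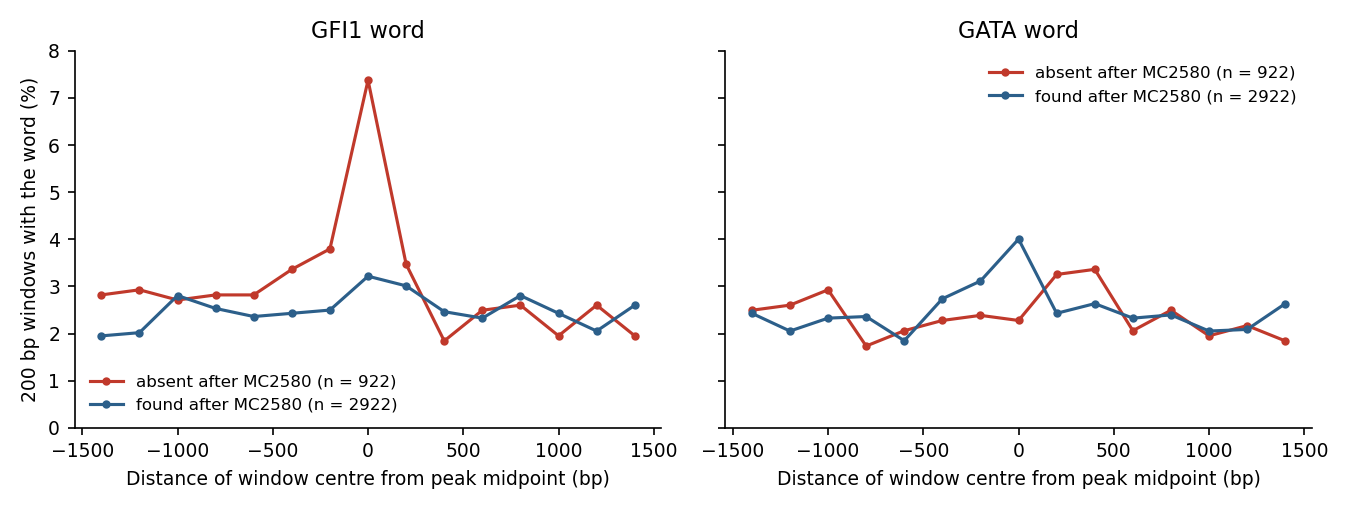
Percentage of sites with a GFI1 word (left) or a GATA word (right) in consecutive 200 bp windows, against the distance of the window from the peak midpoint, for sites absent (red) and found (blue) after MC2580. The GFI1 word peaks at 7.38% in the centre of absent sites, and the GATA word at 4.00% in the centre of retained ones.

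The 68 sites with the GFI1 word were not confined to a few loci. They lay on 21 chromosomes and had 68 different nearest protein-coding genes, and 51 lay outside dense bins. Of these sites 28 were promoters, 5 exonic, 24 intronic and 11 intergenic. Their median score was 259.075 (range 205.84 to 809.79). Beside those shown above, promoter sites with the word included HDAC7, a class IIa deacetylase gene (570.63), ETV5, an ETS factor gene (532.41), and TMEM237 (470.90). Under the same limit of 3100, retained sites with the word had a median MC2580 to DMSO score ratio of 0.301 (0.267 to 0.396), and those without it 0.393 (0.381 to 0.408). This was not particular to the GFI1 word. The ratio was also lower with the PU.1 (0.293), CEBP (0.306), RUNX (0.314), AP-1 (0.332) and SP/KLF (0.344) words than without them (0.392 to 0.397). It was higher with the GATA, ISRE, CTCF and nuclear receptor half-site words. These ratios were not tested.

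The GATA word (AGATAAG) was less frequent in the absent sites. GATA factors direct erythroid, megakaryocytic, mast cell and eosinophil genes. The word was present in 2.28% of the absent and 4.00% of the retained centres (odds ratio 0.559, 0.331 to 0.901, adjusted exact p = 0.0397), and outside dense bins in 2.61% and 5.92% (0.426, 0.229 to 0.748, adjusted exact p = 0.00843). Of the 138 strong peaks with the word, 15.2% were absent (10.2 to 22.1), against 24.3% of those without it. In the absent sites it was as frequent in the flanks (2.28%) as in the centre, and in the retained sites it was centred, with 4.00% against 1.92% (odds ratio 2.13, 1.63 to 2.80, adjusted exact p = 5.91e-08). With a score minimum of 300 the odds ratio of absent against retained sites was 0.973 (0.476 to 1.83, adjusted exact p = 1).

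PU.1, RUNX and SP/KLF words were also more frequent in the absent sites, but not under every setting. PU.1 is the master regulator of myeloid enhancers, RUNX1 its frequent partner, and SP and KLF factors bind GC-rich promoters. The PU.1 word was in 5.10% of the absent and 3.11% of the retained centres (odds ratio 1.67, 1.14 to 2.42, adjusted exact p = 0.0316). The RUNX word was in 7.59% and 5.48% (1.42, 1.04 to 1.91, adjusted exact p = 0.0458), and the SP/KLF word (GGGGCGGGG) in 2.06% and 0.924% (2.26, 1.18 to 4.23, adjusted exact p = 0.0316). Outside dense bins none of the 3 passed: the odds ratios were 1.17 for PU.1, 1.82 for SP/KLF and, turned in direction, 0.845 for RUNX. The EGR word (GCGTGGGCG) was in 2 absent and 2 retained sites, too few to compare. The AP-1 (TGACTCA), CEBP (TTGCGCAA or TTGTGCAA), ISRE, CTCF (CCANNAGGG) and nuclear receptor half-site (AGGTCA) words did not pass, with odds ratios from 0.777 for the ISRE to 1.41 for CEBP. In 400 bp windows the AP-1 word did, in 15.3% and 11.5% (1.39, 1.12 to 1.72, adjusted exact p = 0.0102).

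**Figure D4:**
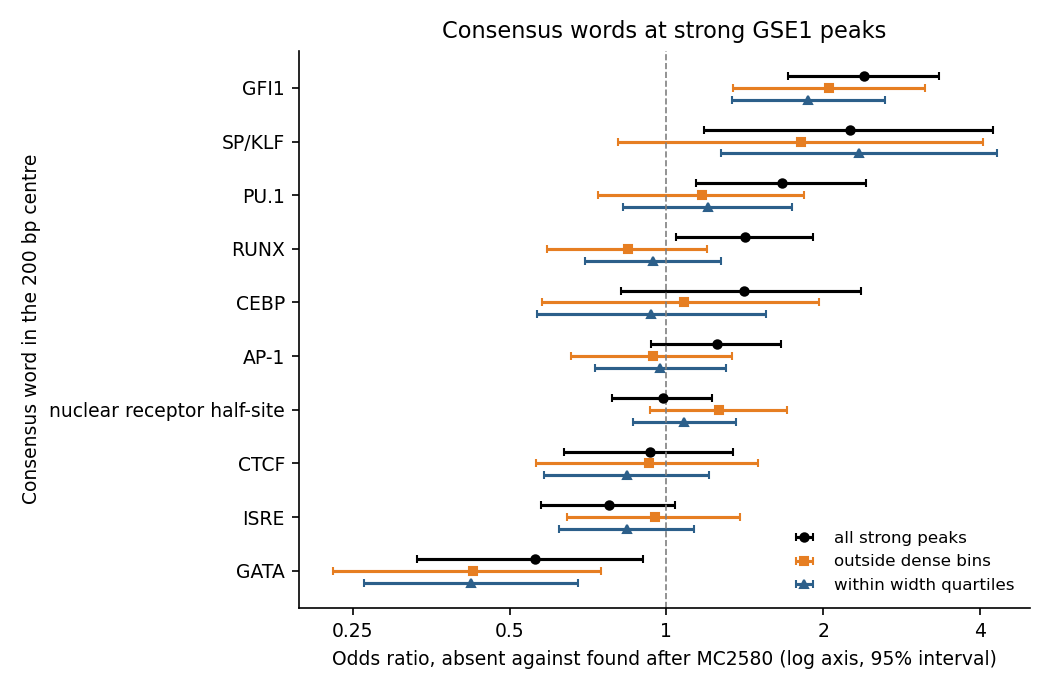
Odds ratio of carrying each consensus word in the central 200 bp, absent against retained strong sites (log axis, bars 95% intervals), over all strong peaks (black), outside dense bins (orange) and stratified by width (blue). The EGR word, found in 4 sites, is left out. GFI1, PU.1 and SP/KLF lie above 1 and GATA, ISRE and CTCF below 1 in all 3 analyses. Only for GFI1 and GATA do all 3 intervals leave out 1.

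Against their own flanks, absent and retained sites both carried the myeloid words at their centres. In the absent sites the PU.1 word was in 5.10% of centres and 0.868% of flanks (odds ratio 6.13) and the RUNX word in 7.59% and 1.52% (5.33). The AP-1 word was in 8.13% and 3.58% (2.38) and the CEBP word in 2.49% and 1.03% (2.46). With GFI1 and SP/KLF (3.21), 6 of 11 words passed. In the retained sites 5 of 11 words passed, and the odds ratios were 4.28 for RUNX, 3.72 for PU.1, 2.39 for AP-1 and 2.50 for CEBP. Outside dense bins the absent and retained sites gave 7.15 and 6.34 for RUNX and 6.12 and 4.15 for PU.1. There they gave 2.53 and 3.46 for AP-1 and 2.98 and 3.86 for CEBP. None of the 11 words was present in 486 absent sites (52.7%) and in 57.2% of the retained ones. CpG-rich centres made up 5.97% of the absent and 4.28% of the retained sites (odds ratio 1.42, 1.00 to 1.98, Fisher's exact p = 0.0395), and outside dense bins 6.35% and 4.90% (1.32, 0.842 to 2.04, exact p = 0.226).

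The same words were then counted in the 17274 DMSO peaks under 200, which the rule did not use but which come from the same libraries. The GFI1 word was in 3.30% of 13230 absent and 1.78% of 4044 present weak peaks (odds ratio 1.88, 1.46 to 2.45, adjusted exact p = 2.35e-06). It was not alone: CEBP (1.53), RUNX (1.41) and AP-1 (1.20) words were also more frequent in the absent weak peaks, and the ISRE (0.808) less frequent, all past the adjusted threshold. Outside dense bins and within score bands, none of these 4 passed. There the Mantel-Haenszel odds ratio of the GFI1 word was 1.89 (1.16 to 3.08), which did not pass after adjustment. In the same strata the GATA word was in 3.76% and 7.54% (0.509, 0.371 to 0.699), which passed, but over all weak peaks it was in 3.17% and 3.44% (0.919, 0.754 to 1.13). Promoters held 35.0% of absent and 31.8% of present weak peaks (1.16, 1.07 to 1.25, adjusted exact p = 0.000608), and distal intergenic sequence, outside dense bins, 23.6% and 32.8% (within score bands 0.607, 0.513 to 0.719, which also passed). These weak-peak comparisons were added after seeing the data.

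Turning to genes, the 922 absent sites had 802 nearest protein-coding genes. Of these 706 had 1 site, 77 had 2 and 19 had 3 or more, and 531 had no retained strong peak. To have none was usual. By a different count, within 3 kb of a TSS or in the gene body, only 1109 of all 19970 protein-coding genes (5.55%) had a retained strong peak. SEPTIN9, a cytoskeletal GTPase gene, had 4 absent sites between 210.46 and 611.31, 9 DMSO peaks in all and no MC2580 peak. AHR, the ligand-activated aryl hydrocarbon receptor, also had 4 (206.00 to 479.74), and none of its nearby strong peaks was retained. JARID2, which encodes an accessory subunit of Polycomb repressive complex 2, was nearest to 4 sites (216.09 to 571.93), all between 324224 and 518031 bp from its TSS. It was also nearest to 1 retained strong site.

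The other genes among the 10 named for the most absent sites also had retained ones. Further genes tied at 3 absent sites are not listed, and some of them had no retained one. MYC had 4 absent and 30 retained strong sites in a dense region of chromosome 8, and the spindle checkpoint gene MAD1L1 had 4 and 4. IKZF1, which encodes the haematopoietic factor Ikaros, had 3 absent and 7 retained sites. GAS7 had 3 and 3, SYNJ2 3 and 2, and BCAS1 and COL4A2 3 and 1 each. Nearest-gene assignment over such distances does not show which gene a site acts on.

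Lists of genes were then examined, counting genes with an absent site within 3 kb of a TSS or in the gene body. Among all 19970 protein-coding genes this held for 568, or 2.84%. A retained strong peak, counted in the same way, was at 1109 (5.55%). It was at 3 of the 45 interferon-response genes, 10 of the 52 myeloid transcription factor genes and 4 of the 28 cell cycle and apoptosis regulators. The listed genes were more often bound at all, since 24.8% of all protein-coding genes but 44.4% to 53.6% of 7 of the 11 lists had some DMSO peak, so that these counts are descriptions and no list was tested.

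Interferon-response genes contributed 4 of 45. IFIT3, an interferon-induced antiviral gene, had a promoter site of 537.37 with a GFI1 word, and neither it nor BST2 had any MC2580 peak. BST2, the antiviral membrane protein tetherin, had a site of 526.14 that lay 172 bp from a TSS of the gene and a site of 222.81 that covered one. IRF5, a transcription factor of interferon induction, had 300.29, and the RNA sensor gene RIGI 264.54. The RefSeq promoter of BST2 (GRCh38.p14, chr19:17405581-17405880, minus strand, 250 bases before to 50 after the start) is shown because it holds overlapping ISRE words, in capitals, that fall between the 2 sites. Of 35116 RefSeq promoters, 8.11% hold an ISRE.
BST2: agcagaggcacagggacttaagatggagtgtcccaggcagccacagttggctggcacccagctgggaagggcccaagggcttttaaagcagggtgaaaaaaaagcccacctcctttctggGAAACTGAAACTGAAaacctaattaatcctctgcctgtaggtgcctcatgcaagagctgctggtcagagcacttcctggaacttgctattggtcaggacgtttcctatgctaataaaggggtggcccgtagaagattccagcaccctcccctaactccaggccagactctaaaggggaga

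Myeloid transcription factor genes contributed 8 of 52. The sites were in BACH2, a repressor of differentiation (715.12), RXRA, a nuclear receptor partner (486.66 and 205.89), AHR (369.75 and 206.00 in the gene body) and IKZF1 (363.94 at the promoter and 363.65 in an intron). Lower scores were found at GFI1B (261.04, 2941 bp from its TSS), KLF13 (258.51), RUNX1 (227.15 and 201.26) and FLI1 (213.11). The RUNX1 sites both hold a RUNX word in their centres. Of these genes only GFI1B had no MC2580 peak. In the EGR and immediate early list, 1 of 35 genes had an absent site, KLF2 (724.87), a zinc-finger factor of quiescent leukocytes.

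Surface proteins and receptors that mark leukocyte differentiation had sites of modest score. Of 60 surface genes 6 had one, at the integrin gene ITGB2 (359.57), SELPLG (285.70), SIRPB1 (282.52), CD53 (262.34), VSIR (205.61) and the costimulatory ligand gene CD86 (204.05). Among 38 cytokine and growth factor receptor genes, IL31RA (404.79), IL6R (307.94), IL17RA (223.58) and CSF1R, the receptor of macrophage colony-stimulating factor (208.90), had one. Of 36 Toll-like, chemokine and formyl peptide receptor genes 3 did, TLR1 (399.77), CXCR4 (241.75) and FPR3 (200.30). Retained strong peaks were at 13 of the 60, 4 of the 38 and 5 of the 36 genes. ITGB2, SELPLG, VSIR, CD86, IL17RA and CSF1R each had both an absent and a retained strong site. CXCR4 retains leukocytes in the bone marrow. Its RefSeq promoter (GRCh38.p14, chr2:136116186-136116485, minus strand) lies inside the absent site and is shown for its GFI1 word, in capitals, which lies outside the central window. Of the RefSeq promoters, 3.13% hold a GFI1 word.
CXCR4: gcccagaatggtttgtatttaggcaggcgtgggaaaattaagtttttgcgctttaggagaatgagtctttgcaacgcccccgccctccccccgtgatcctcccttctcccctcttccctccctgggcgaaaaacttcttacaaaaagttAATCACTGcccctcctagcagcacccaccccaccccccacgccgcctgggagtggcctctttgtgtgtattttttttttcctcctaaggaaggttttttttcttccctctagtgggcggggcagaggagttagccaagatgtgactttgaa

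Cell cycle and apoptosis regulators contributed 5 of 28. They were the pro-apoptotic gene BCL2L11 (492.85, at the promoter), its antagonists BCL2L1 (372.85) and BCL2 (209.62), the death ligand gene TNFSF10 (223.63) and RB1 (208.79). The LSD1-CoREST list had 2 of 25, ZNF217 (313.48) and RREB1 (250.47), both DNA-binding partners of corepressor complexes. No absent site was found at the 32 cytokine signalling genes, the 30 genes of granule proteins and oxidase or the 21 HOXA and HOXB genes. Of these, 14, 11 and 6 genes had some DMSO peak, and 5, 5 and 0 a retained strong peak.

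**Figure D5:**
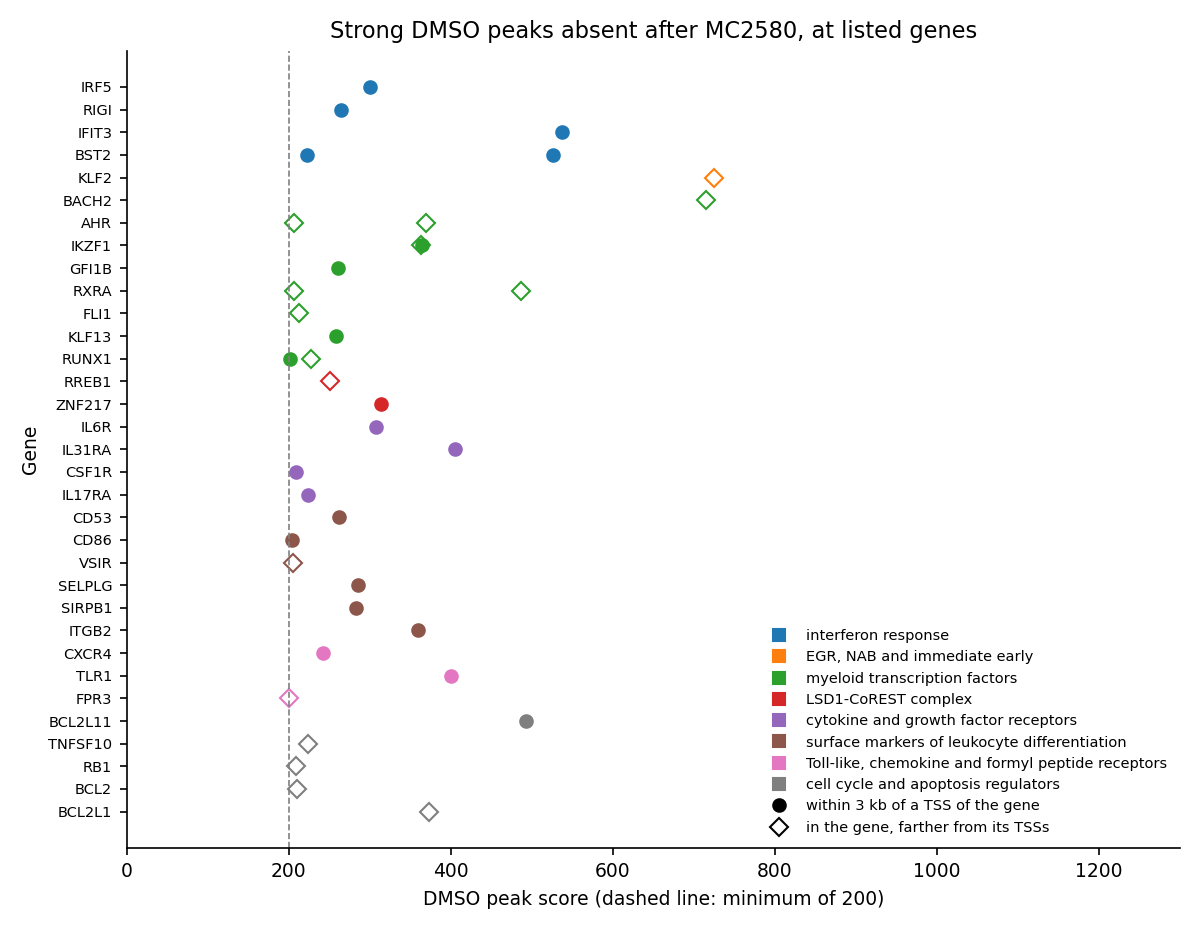
DMSO score of each absent strong site at a gene of the fixed lists, coloured by list; filled circles lie within 3 kb of a TSS of the gene and open diamonds farther inside it. KLF2 (724.87) and BACH2 (715.12) carried the highest scores, and most sites lay between 200 and 400.

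Finally, the positions of the study's ChIP-qPCR amplicons were looked up from their primers. The amplicons at the IFIT3 and CD86 promoters lay inside absent sites. Those at GFI1B and CD48, which encodes an adhesion protein of leukocytes, lay in DMSO peaks of 83.37 and 120.45. These had no MC2580 peak either, but were below the score minimum. The ICAM1 and ICAM4 amplicons lay in 1 wide retained peak listed at 3100, and the negative region lay in no peak of either list.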

How the data were processed

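Reads were mapped by the authors with Bowtie (4.8.2, per the submitters' processing notes) on hg38, keeping unique matches with at most 2 mismatches. MACS peaks were taken at a p-value of 1e-05, with the input and the empty-vector ChIP as background. How the calls against both were combined is not given in the sources used here. The deposited lists hold a position and a score for each peak, 21401 for DMSO and 13233 for MC2580. The score is MACS's minus 10 times log10 of the p-value. Peaks elsewhere than on chromosomes 1 to 22 and X were left out.

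The sites, gene lists and words were chosen with earlier results of these data known. Genes came from GENCODE version 44. Words were counted on both strands in the central 200 bp, and in windows 2 kb to each side. Absent and retained sites were compared with Fisher's exact test, two-sided, or by Mantel-Haenszel odds ratios within score, width or GC strata, with Benjamini-Hochberg adjustment over 4 classes or 11 words. CpG-rich centres had more than 50% GC and an observed to expected CpG ratio of more than 0.6 in the central 400 bp. Intervals cover counting error only. The named genes were those of the 15 highest-scoring absent sites, every listed gene with an absent site, the 10 genes with the most absent sites, the 3 top retained sites under 3100, the sites at the edges of the rule, and the ChIP-qPCR amplicons (1 is not reported here), and the further GFI1-word sites named were chosen after their values were seen. The interval, word and odds ratio functions were tested on simulated data. Alternatives were a score minimum of 300, removal of dense bins, strata, absence within 1 kb, other promoter definitions and 400 bp windows. Python 3.11.15, numpy 2.4.6, scipy 1.17.1 and statsmodels 0.14.6 were used.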

Additional observations from a re-analysis of the deposited data

How the results depend on the processing

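No paired analysis was possible because each condition had 1 library, and for the same reason no replicate could be left out. Read depth was unknown, so that loss of a site and a shallower MC2580 library cannot be told apart. Repeat-masked windows could not be counted, since the reference has no lower-case bases, and the EGR word gave no value at a score minimum of 300. Of 244 alternative values, 164 kept both direction and side of the threshold, or for a number its size within 1.5 times. The number of absent sites was 306 at a score minimum of 300 and 614 without dense bins. The promoter odds ratio passed the test without dense bins (1.31) and within width quartiles (1.26). It did not pass at a score minimum of 300 (1.05), within score classes (1.20) or with absence within 1 kb (1.03). Nor did it pass with promoters within 1 kb of a TSS (1.05) or with protein-coding TSSs only (1.02).

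The following settings were chosen after seeing the data. Promoters also passed without bins of at least 40 peaks of both lists (1.35), without dense bins within width quartiles (1.31), and by the peak midpoint (1.33, and 1.35 without dense bins), and turned to 0.971 in dense bins alone. There, distal intergenic sequence turned to 1.14 and EGR to 0, and GFI1 missed the adjusted threshold (2.25). Intron turned to 0.956 by the midpoint, and exon or untranslated region to 1.01 without bins of both lists. CpG-rich centres did not pass without bins of both lists (1.39), without dense bins within width quartiles (1.38) or in dense bins (1.37).

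Among planned settings, CpG-rich centres did not pass without dense bins (1.32) or with absence within 1 kb (1.35). Without dense bins RUNX (0.845), AP-1 (0.941) and the nuclear receptor half-site (1.26) turned. Within width quartiles intron (0.971), RUNX (0.943), AP-1 (0.973), CEBP (0.936) and the half-site (1.08) did. With both steps together, added after seeing the data, RUNX (0.771), AP-1 (0.894), the ISRE (1.01) and the half-site (1.24) did, without bins of both lists RUNX (0.912) and the half-site (1.26), and in 400 bp windows the half-site (1.02), where AP-1 passed (1.39). The number of words called, 5 in all strong sites, was 1 at a score minimum of 300, within score classes and in dense bins, 2 without dense bins, without them within width quartiles and without bins of both lists, and 3 within width quartiles or with absence within 1 kb. Of the 6 words centred in absent sites, 3 passed at a score minimum of 300. GATA did not pass at a score minimum of 300 (0.973), within score classes (0.552), with absence within 1 kb (0.610), in dense bins (0.594) or in 400 bp windows (0.805). The cause of these changes was not tested.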
